A study of Mus musculus with 8 samples.

Results

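The Hox genes are the homeobox transcription factors of the 4 mammalian Hox clusters, and their transcripts were measured here in primordial germ cells (PGCs), from which sperm and eggs later derive. Members were the genes named Hoxa, Hoxb, Hoxc or Hoxd followed by a paralogue number, each read by a microarray probe annotated to that gene alone. By this rule 37 of the 39 Hox genes of the mouse RefSeq table (GRCm38.p6) were measured, out of 19938 genes in all, and each of the 37 had 1 probe. The measured members were 10 in the Hoxa cluster on chromosome 6, 9 in the Hoxb cluster on chromosome 11, 9 in the Hoxc cluster on chromosome 15 and 9 in the Hoxd cluster on chromosome 2. Genes without a probe of their own, such as Hoxb8, which shared its probe with Hoxb7, were not analysed here.

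The series compared PGCs from 4 embryos homozygous for the Y324C change in Ror2 (mutant) with PGCs from 4 wild-type embryos (WT), all at embryonic day 9.5 and on a mixed strain background. Ror2 is a receptor tyrosine kinase for the ligand Wnt5a. The parents were Ror2 heterozygotes, and the sires carried the Oct4-ΔPE transgene, so the embryos of each group also carried the reporter whose green fluorescence was used to sort PGCs from the trypsin-digested posterior part of each single embryo. Each embryo gave 1 array and is the replicate. The mutant embryos numbered 1 to 4 had 24, 22 to 23, 23 and 21 to 22 somites, and the WT embryos numbered 1 to 4 had 25, 25, 22 and 21 somites. Somites are the paired segments of the trunk, added one after another, so their number stages the embryo. Values are log2 array signals as deposited, and precision is limited by having 4 arrays in each group.

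In the trunk, Hox genes are switched on in an order that follows their place in each cluster: low paralogue numbers first and nearest the head, high numbers later and nearest the tail. Genes with the same paralogue number in different clusters descend from 1 ancestral gene and have similar homeodomains, the part of the protein that binds DNA. The proteins act with TALE cofactors of the Pbx and Meis families. Cdx proteins and retinoic acid induce Hox genes, while Polycomb complexes keep them silent and Trithorax complexes keep them active. In mouse PGC precursors, Prdm1 (Blimp1) is known for the repression of the somatic programme, Hox genes included. PGCs at this stage lie in and begin to leave the hindgut, amid posterior tissues in which many Hox genes are active.

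The clusters also hold microRNAs, small RNAs that pair with messenger RNAs through a seed, and several are known to act on Hox transcripts. They are shown because they are read by probes within the same clusters. The capitals mark the seed, bases 2 to 8 of the mature RNA, as given by RefSeq (GRCm38.p6). The 5 sequences have 3 distinct seeds: miR-10a and miR-10b share one, and so do miR-196a and miR-196b, while miR-615 has its own.
miR-10a-5p: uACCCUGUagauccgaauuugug
miR-10b-5p: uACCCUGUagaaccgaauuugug
miR-196a-5p: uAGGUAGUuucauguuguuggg
miR-196b-5p: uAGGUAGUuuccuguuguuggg
miR-615-3p: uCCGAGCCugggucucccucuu

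The probes are annotated to the microRNA genes and are not read here as the mature RNA, and their values did not separate the groups. Mir615, in the Hoxc cluster, had log2 values of 6.76, 6.24, 6.5 and 6.56 in the mutants, against 6.17, 6.71, 7.08 and 6.74 in WT. Mir196b, in the Hoxa cluster, averaged 5.24 ± 0.24 in the mutants and 5.27 ± 0.25 in WT (SD, n = 4 each). The groups overlapped for each of the 6 microRNA genes, and Mir10a and Mir10b lay under the yardstick described next on every array.

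Most Hox probes gave low readings. Probe signals depend on the probe as well as on the transcript, so the levels of different genes were not ranked, and a yardstick was used instead: on each array, the 95th percentile of 1190 receptor genes for odours and pheromones (Olfr and Vmn), a class used chiefly by sensory neurons. It ran from 5.06 to 5.51 on the log2 scale. Of the 37 Hox genes, 6 lay above it on all 8 arrays, or 16.2%, while 49.2% of all genes did. Hoxb supplied 4 of the 6 (Hoxb1, Hoxb3, Hoxb7 and Hoxb9), Hoxa and Hoxd 1 each (Hoxa4 and Hoxd9) and Hoxc 0. By paralogue number, 2 of 7 members of groups 1 to 3, 2 of 14 of groups 4 to 8 and 2 of 16 of groups 9 to 13 met this mark. Being under the yardstick does not show that a transcript was absent.

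The 6 genes above the yardstick are taken in turn. Hoxb3, a patterning gene of the hindbrain, had log2 values of 6.21, 6.37, 6.25 and 6.37 in the mutants, against 6.21, 6.48, 6.64 and 6.44 in WT. Hoxb1, which specifies a hindbrain segment, had 6.35, 5.96, 5.79 and 6.32 in the mutants, against 6.16, 6.16, 6.47 and 6.20 in WT. Hoxa4 had 6.15, 5.81, 5.88 and 5.93 in the mutants, against 5.99, 5.93, 6.02 and 6.0 in WT. All 3 genes overlapped between the groups, and the 4 WT values of Hoxa4 lay within those of the mutants.

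Hoxb7 had 6.12, 6.25, 6.38 and 6.23 in the mutants, against 5.92, 5.90, 6.07 and 6.21 in WT. Hoxb9, a gene of the thoracic region, had 5.52, 5.54, 6.01 and 5.94 in the mutants, against 5.93, 5.97, 6.05 and 5.90 in WT. Hoxd9 had 5.67, 5.50, 6.46 and 5.62 in the mutants, against 5.26, 5.70, 6.02 and 5.53 in WT. For Hoxb7, 3 of 4 mutants lay above every WT value, and for Hoxb9 2 of 4 mutants lay below every WT value, so the groups still overlapped. Over all 37 genes the range across the 8 embryos went from 0.20 to 1.5, with a median of 0.58, where the median range of all genes was 0.72.

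**Figure D1:**
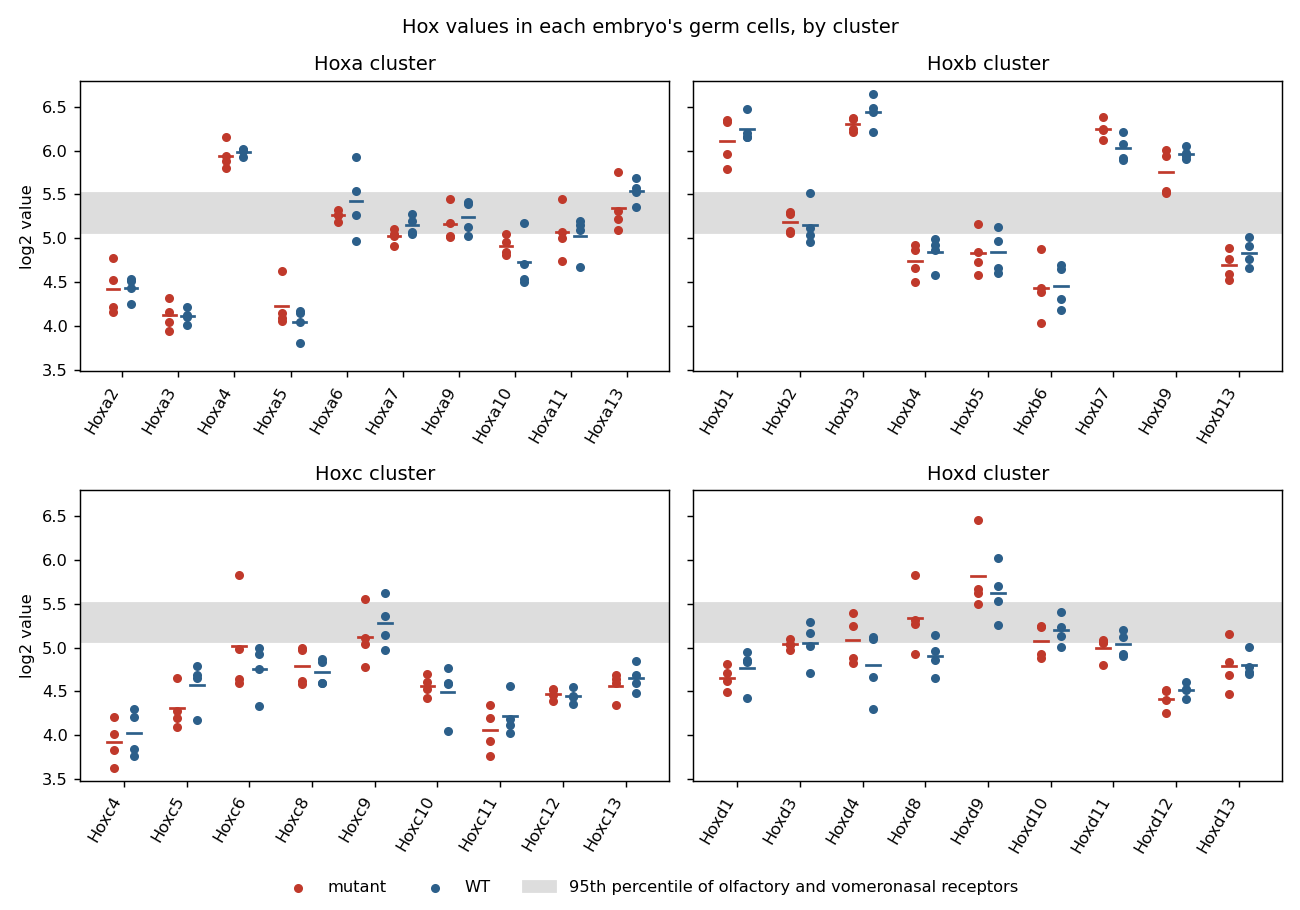
Log2 value of each Hox gene (y axis) in each embryo, by cluster and in order of paralogue number (x axis), with 4 mutant embryos (left of each pair) and 4 WT embryos (right), and short lines at the group means. The grey band spans the 95th percentile of receptor genes over the 8 arrays (5.06 to 5.51), and 6 genes lie above that mark on every array.

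The comparison of mutant with WT asked whether the Ror2 mutation goes with a change in Hox transcripts of PGCs. No Hox gene met the threshold: 0 of 37 passed the limma test (Benjamini-Hochberg adjusted over all genes, threshold 0.05), and the percentage of all genes that passed was 0. At an unadjusted p under 0.05 the count was also 0 of 37, against 4.68% of all genes. In 0 of 37 genes did the mutant values lie wholly on 1 side of the WT values, against 2.52% of all genes. The median difference over the Hox genes (mutant minus WT, log2) was -0.04, with 24 genes below 0 and 13 above, and over all genes it was -0.02, with 55.4% below 0 and 44.6% above. The sign of the Hox median turned with scaling, to 0.02 after median centring and 0.03 after quantile normalization. The median over all genes turned as well, to 0.04 after median centring and 0.01 after quantile normalization. The smallest limma adjusted p of a Hox gene was 0.973.

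Hoxd8, a central Hoxd gene, had the smallest p. Its log2 values were 5.27, 4.92, 5.83 and 5.31 in the mutants, against 4.65, 5.14, 4.96 and 4.86 in WT. Of the mutants, 3 lay above all WT embryos, with mutant 3 farthest, and mutant 2 lay among the WT values. The difference was 0.43 ± 0.20 (SE), with a 95% interval from -0.00359 to 0.86 and an unadjusted limma p of 0.0516 (adjusted 0.973). With 1 embryo left out, the difference ran from 0.26 (without mutant 3) to 0.57 (without mutant 2).

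Hoxd4 had 4.88, 4.82, 5.4 and 5.25 in the mutants, against 4.30, 4.66, 5.10 and 5.13 in WT. Mutants 3 and 4 lay above all WT embryos and the other two among them, for a difference of 0.29 ± 0.21 (SE). It was 0.19 without mutant 3, 0.40 without WT 4 and 0.12 without WT 1, which held the lowest value. Hoxb7, given above, differed by 0.22 ± 0.13 (SE), with an interval from -0.06 to 0.51.

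On the other side, Hoxc5 had 4.20, 4.28, 4.09 and 4.65 in the mutants, against 4.17, 4.66, 4.79 and 4.69 in WT, and it differed by -0.27 ± 0.18 (SE). Here 3 WT embryos lay above all mutants and WT 1 lay among them. Hoxb9 differed by -0.21 ± 0.15 (SE), or -0.14 without mutant 1 and -0.30 without mutant 3. Hoxa13, a gene of the tail end, hindgut and limb tips, had 5.31, 5.76, 5.21 and 5.10 in the mutants, against 5.36, 5.53, 5.69 and 5.57 in WT, and it differed by -0.19 ± 0.16 (SE), or -0.33 without mutant 2 and -0.11 without mutant 4. Mutant 2 had the highest Hoxa13 value of all embryos while the other 3 mutants lay below all WT embryos.

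By cluster, the median difference was -0.03 for Hoxa (4 of 10 above 0), -0.10 for Hoxb (2 of 9), -0.09 for Hoxc (4 of 9) and -0.01 for Hoxd (3 of 9). By paralogue number it was -0.01 for groups 1 to 3 (2 of 7 above 0), -0.02 for groups 4 to 8 (6 of 14) and -0.08 for groups 9 to 13 (5 of 16). These are values on the deposited scale, and the sign of such small medians was not compared across scalings. All 37 intervals lay between -0.66 and 0.86, so these arrays leave room for differences of less than 1 on the log2 scale in either direction.

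**Figure D2:**
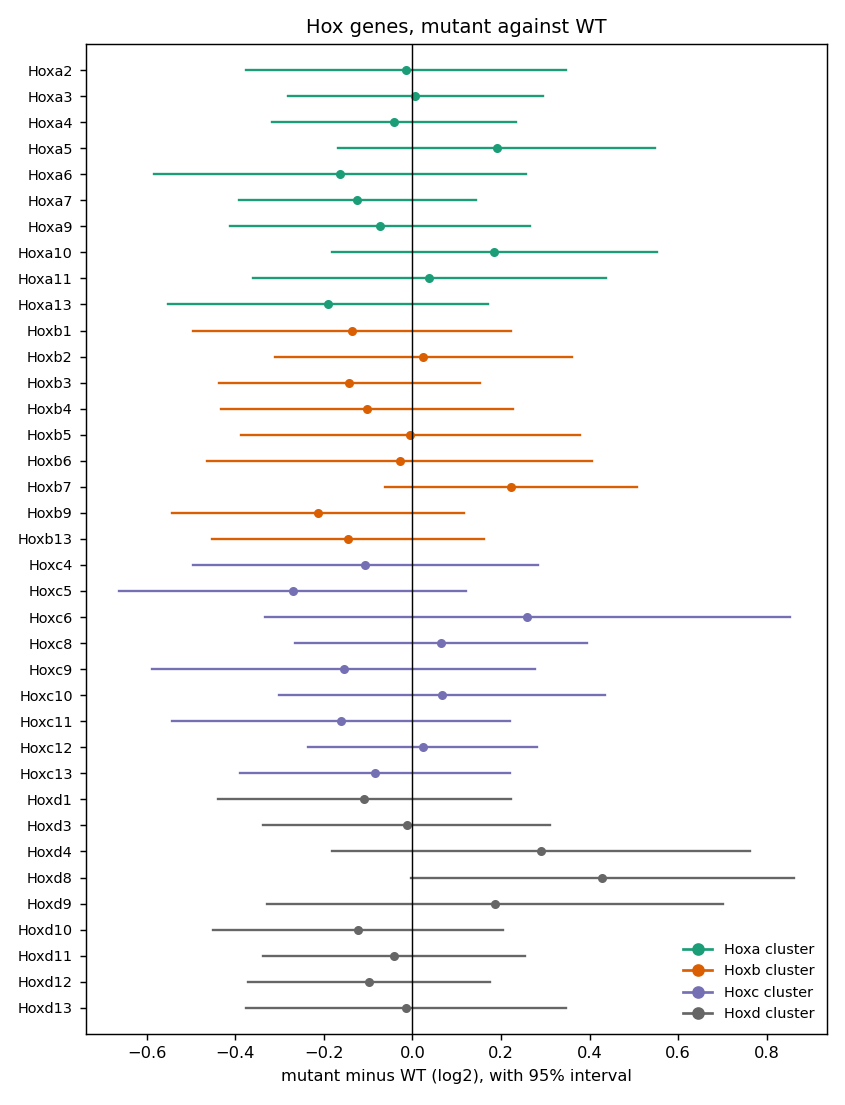
Mutant minus WT difference of each Hox gene (x axis, log2) with its 95% limma interval, ordered by cluster and paralogue number from the top (y axis), with colours for the 4 clusters. Each of the 37 intervals spans 0, and Hoxd8 (0.43) lies farthest from 0.

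Somite number was used as a second axis, since the trunk adds posterior Hox domains as somites form. The slope per somite was fitted in limma with genotype in the model. No Hox gene passed (0 of 37 at an adjusted p under 0.05, and 0% of all genes). At an unadjusted p under 0.05 there were 3 of 37, all with a slope below 0, namely Hoxb6, Hoxa6 and Hoxd4. Among all genes 9.74% had such a p, 4.72% below 0 and 5.02% above. In this fit, 33 of the 37 Hox slopes lay below 0, or 89.2%, with a median of -0.05 log2 per somite.

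A slope below 0 was common among weakly read probes. It was found in 59.5% of all genes (median -0.02), in 77.6% of the genes at or under the median level (median -0.04) and in 70.3% of the receptor genes (median -0.03). Beyond the 6 above the yardstick, every Hox gene averaged less than 5.61, the median gene's level. The array medians over all probes were 5.44, 5.4, 5.37 and 5.49 in mutants 1 to 4, against 5.39, 5.48, 5.58 and 5.49 in WT 1 to 4, highest in the WT embryo of 22 somites. After median centring 28 of 37 Hox slopes lay below 0, with a median of -0.02, and 47.5% of all genes did. After quantile normalization it was 27 of 37, with a median of -0.03, and 57.7% of all genes. Shares for genes at or under the median level are not given after scaling, so a Hox excess over weakly read genes cannot be read from these values. The part of the array distribution in the Hox slopes was not tested.

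Hoxb6, which patterns the thoracic region, had 4.03, 4.43, 4.39 and 4.88 in mutants of 24, 22 to 23, 23 and 21 to 22 somites, against 4.31, 4.18, 4.65 and 4.69 in WT embryos of 25, 25, 22 and 21 somites. Its slope was -0.16 ± 0.05 log2 per somite (SE, unadjusted limma p of 0.00885, adjusted 0.428). In each group the youngest embryo had the highest value, and all readings lay under the yardstick.

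Hoxa6 had 5.27, 5.32, 5.19 and 5.27 in the mutants, against 5.26, 4.97, 5.54 and 5.92 in WT, and a slope of -0.15 ± 0.05 (SE, limma adjusted p of 0.464), or -0.10 without WT 4. The spread came from WT, with the WT embryos of 21 and 22 somites highest, while the mutant SD was 0.06 and the WT SD 0.41. Hoxd4 had a slope of -0.16 ± 0.06 (SE, limma adjusted p of 0.478), and its lowest values were those of the 2 WT embryos of 25 somites. The 4 genes with a slope above 0 were Hoxa2, Hoxa4, Hoxb13 and Hoxd8, each at 0.01. Hoxa2, which patterns the hindbrain and the pharyngeal arches, had 4.22, 4.78, 4.15 and 4.53 in the mutants, against 4.53, 4.52, 4.43 and 4.25 in WT.

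**Figure D3:**
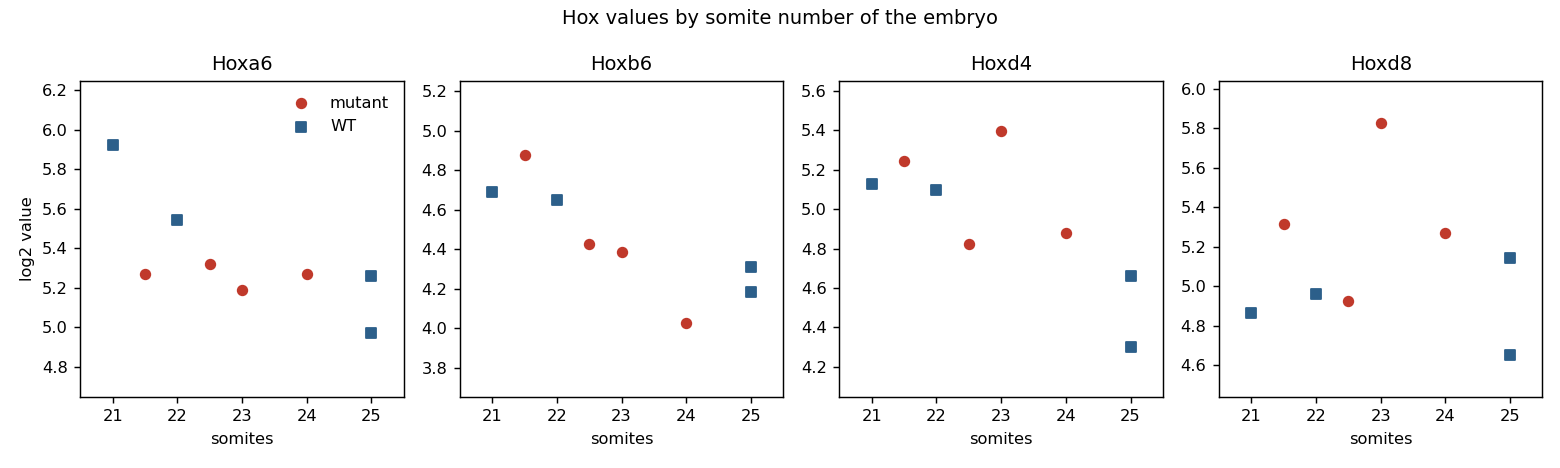
Log2 values (y axis) of Hoxa6, Hoxb6, Hoxd4 and Hoxd8 against the somite number of the embryo (x axis, midpoint where the labels give a range), with mutants as circles and WT as squares. Hoxb6 is highest in the youngest embryo of each group, and Hoxd8 has a slope of 0.01.

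Among the classes of paralogue number, the median slope was lowest in the central class, though not every group in it was low. The median was -0.05 for paralogue groups 1 to 3 (6 of 7 below 0), -0.07 for groups 4 to 8 (12 of 14) and -0.03 for groups 9 to 13 (15 of 16). Group 6 had the lowest median, -0.15, with Hoxa6 and Hoxb6 joined by Hoxc6 at -0.10 ± 0.09 (SE), and group 5 followed at -0.11. Group 8 had the highest median, -0.01, and group 10, at -0.08, lay below groups 4 (-0.07) and 7 (-0.05). By cluster the medians were -0.03 for Hoxa, -0.06 for Hoxb, -0.07 for Hoxc and -0.04 for Hoxd. Differences between paralogue groups or clusters were not tested.

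**Figure D4:**
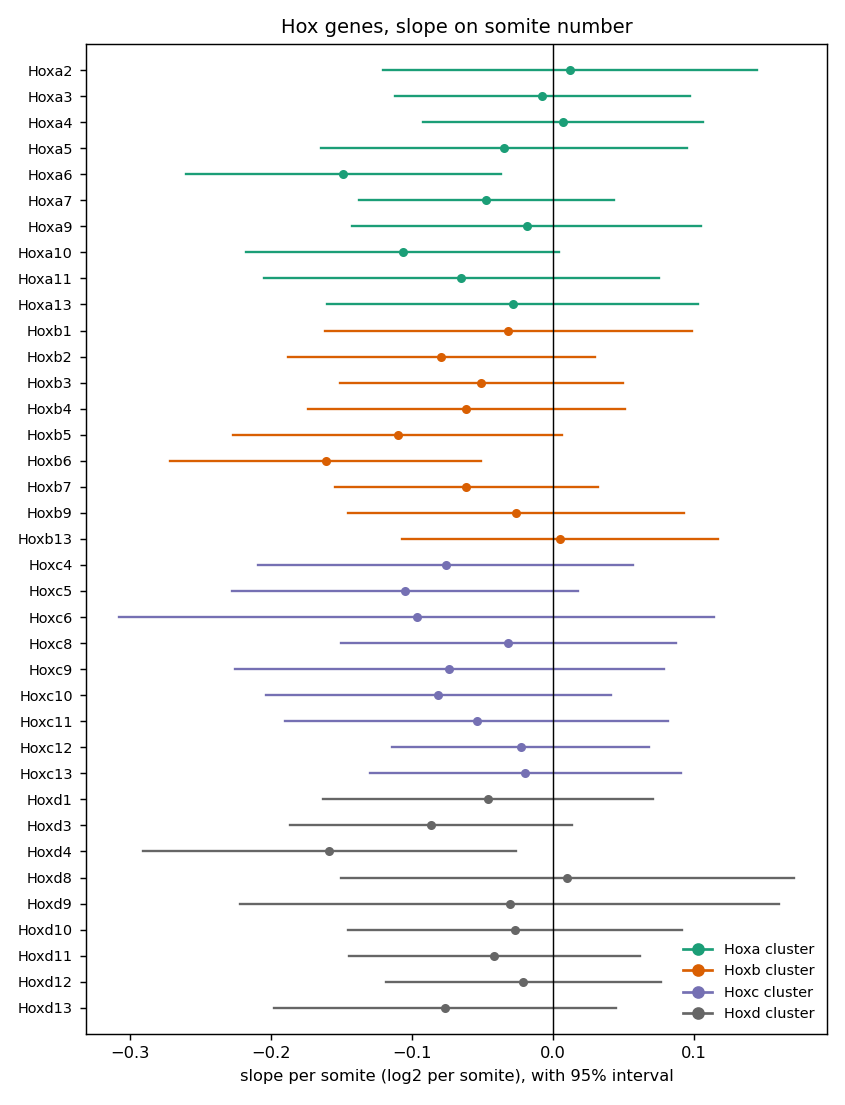
Slope of each Hox gene on somite number (x axis, log2 per somite, genotype in the model) with its 95% limma interval, ordered by cluster and paralogue number from the top (y axis). Of the 37 slopes, 33 lie below 0, and the intervals of Hoxa6, Hoxb6 and Hoxd4 do not reach 0.

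Taken within each group by least squares, 24 of 37 slopes lay below 0 in mutants (median -0.03) and 34 of 37 in WT (median -0.05). Over all genes 53.7% lay below 0 in mutants and 59.9% in WT, and over genes at or under the median level 61.7% in mutants and 76.7% in WT. By paralogue number it was 6 of 7 in mutants and 5 of 7 in WT for groups 1 to 3, 12 of 14 in mutants and 13 of 14 in WT for groups 4 to 8, and 6 of 16 in mutants and 16 of 16 in WT for groups 9 to 13. The mutants spanned fewer somites, from 21.5 to 24, against 21 to 25 in WT. The limma test of the difference between the slopes called 0 of 37 genes and 0% of all genes, and 0 of 37 had an unadjusted p under 0.05, against 4.52% of all genes. The smallest p was that of Hoxb6 (0.0857, adjusted 0.999), at -0.33 log2 per somite in mutants and -0.12 in WT.

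The extremes were unevenly shared among embryos. WT 3 held the highest value of 11 members and WT 4 of 9, while WT 1 held the highest of 0 and the lowest of 10. The mean over the 37 genes was 4.90, 4.97, 4.97 and 5.02 in mutants 1 to 4, against 4.81, 4.94, 5.09 and 5.08 in WT 1 to 4, so the mutant means lay within the WT range. The SD over all genes was 1.90, 1.94, 1.94 and 1.83 in the mutants, against 1.95, 1.86, 1.77 and 1.82 in WT, with the narrowest distribution in WT 3 and the widest in WT 1. The part of this width in the Hox values was not tested.

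Mutant 3 went both ways, with the highest value of 6 members and the lowest of 10. Its highest members were Hoxa9, Hoxb7, Hoxc6, Hoxd4, Hoxd8 and Hoxd9. Hoxc6 had 4.65, 4.59, 5.83 and 4.98 in the mutants, against 4.33, 4.75, 5.0 and 4.93 in WT. Mutant 3 stood 0.95 above the mean of the gene for Hoxc6, 0.74 for Hoxd9, 0.71 for Hoxd8 and 0.46 for Hoxd4. Hoxd8 and Hoxd9 are neighbours in the cluster, yet the next gene on the tail side, Hoxd10, was at 4.92 in mutant 3, above mutant 4 alone. These genes were singled out after their values were seen, and no test was made.

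Marker lists of other cells were read beside these values. Their means in mutant 3 were 5.73 for 12 tailbud progenitor genes (from 5.60 to 5.93 in the other embryos), 5.24 for 15 trunk mesenchyme genes (from 5.0 to 5.45) and 5.24 for 10 urogenital mesoderm genes (from 5.18 to 5.61). Those of 11 neural tube genes were lowest in mutant 3, at 5.31, and those of 6 neural crest genes highest, at 5.61. The mean of 16 PGC markers was 9.82 there. The part of other cells in the values of mutant 3 was not tested.

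**Figure D5:**
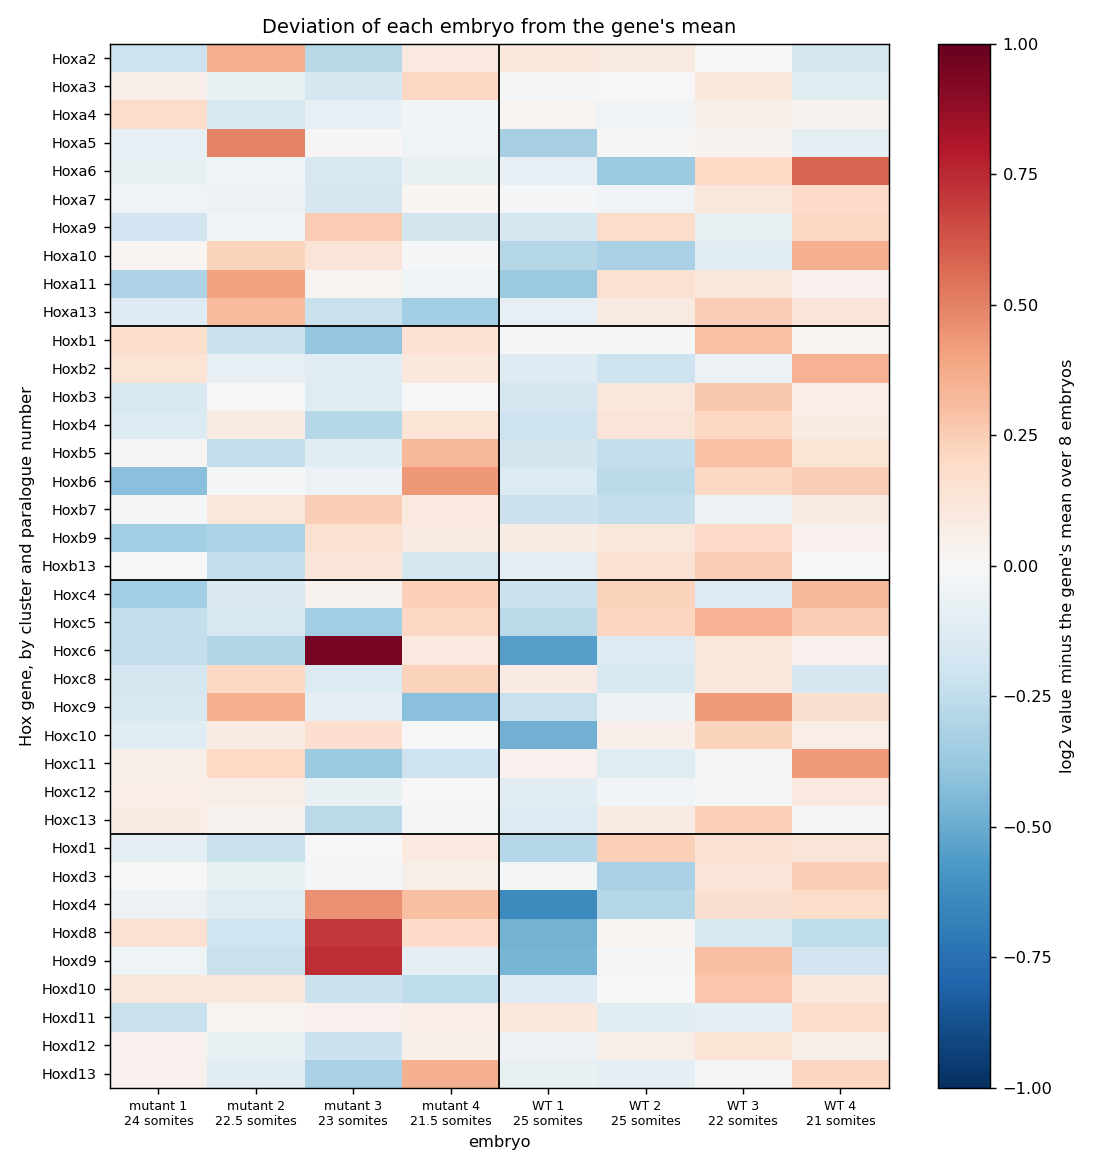
Log2 value of each Hox gene minus its mean over the 8 embryos (colour scale), with genes down the page by cluster and paralogue number and embryos across, 4 mutants on the left and 4 WT on the right. Mutant 3 is high for Hoxc6 (0.95), Hoxd8 (0.71) and Hoxd9 (0.74), and WT 1 is the lowest embryo for 10 genes.

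The promoters of 4 of these genes are shown, since Hoxd4, Hoxd8 and Hoxd9 shared the high values of mutant 3 and Hoxa6 was among the lowest slopes. They are the 250 bases before the RefSeq start (GRCm38.p6), 5′ to 3′ on the strand of the gene: Hoxa6 at chr6:52208673-52208922 on the minus strand, Hoxd4 at chr2:74721728-74721977 on the plus strand, Hoxd8 at chr2:74704365-74704614 on the plus strand and Hoxd9 at chr2:74697513-74697762 on the plus strand. Capitals mark matches, on either strand, to TATAAA (the core of the TATA box), TTTATG (core of Cdx sites), TGATNNAT (core of sites for Hox with Pbx) or AGGTCA (half-site of retinoic acid receptors).
Hoxa6: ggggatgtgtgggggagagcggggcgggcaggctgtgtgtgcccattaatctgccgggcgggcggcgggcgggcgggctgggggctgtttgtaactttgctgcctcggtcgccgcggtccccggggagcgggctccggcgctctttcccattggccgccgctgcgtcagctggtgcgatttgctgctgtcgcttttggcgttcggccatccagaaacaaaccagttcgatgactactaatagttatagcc
Hoxd4: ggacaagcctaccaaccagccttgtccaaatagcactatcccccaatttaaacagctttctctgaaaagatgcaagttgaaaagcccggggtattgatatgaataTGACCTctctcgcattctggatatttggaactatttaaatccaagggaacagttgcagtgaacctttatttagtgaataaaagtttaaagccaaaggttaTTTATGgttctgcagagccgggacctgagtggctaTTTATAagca
Hoxd8: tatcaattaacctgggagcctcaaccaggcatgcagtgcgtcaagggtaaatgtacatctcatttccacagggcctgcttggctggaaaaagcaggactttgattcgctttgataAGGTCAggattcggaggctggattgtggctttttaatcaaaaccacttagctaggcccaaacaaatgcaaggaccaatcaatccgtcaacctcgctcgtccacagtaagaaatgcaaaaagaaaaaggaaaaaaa
Hoxd9: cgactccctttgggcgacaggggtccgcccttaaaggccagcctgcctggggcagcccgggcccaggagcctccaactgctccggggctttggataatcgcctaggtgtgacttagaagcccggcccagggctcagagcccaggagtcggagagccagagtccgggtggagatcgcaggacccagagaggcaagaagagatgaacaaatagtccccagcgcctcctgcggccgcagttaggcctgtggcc

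The Hoxd4 window held 3 matches (1 to the TATA box, 1 to the Cdx core and 1 to the receptor half-site), Hoxd8 held 1 (AGGTCA), and Hoxa6 and Hoxd9 held 0. A promoter was listed for 21 of the 37 members. Counted per gene, with a match in any window of the gene, AGGTCA was in 6 of these 21 (28.6%), against 15.8% of all 27025 genes in the promoter table, TTTATG in 4 (19%, against 12.4%), TATAAA in 3 (14.3%, against 14.3%) and TGATNNAT in 3 (14.3%, against 8.81%). Over single windows the shares were 14% for AGGTCA, 10.8% for TTTATG, 12.4% for TATAAA and 7.68% for TGATNNAT, of 32851 windows in all. The TATA box on the other strand shares its first 5 letters with the Cdx core and differs at the last, so the same bases cannot match both. The Hox windows were rich in the dinucleotide CG, with a median of 13 per window against 6 for all windows. A match describes letters and not binding.

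The genes that act with or on Hox genes were compared from lists, and 0 genes of any list passed the limma test for mutant against WT or for the somite slope. Of 10 TALE cofactors, 0 had an unadjusted p under 0.05 for mutant against WT, against 4.68% of all genes. The median difference was -0.03. The somite slope had such a p in 3 of the 10, all below 0, against 4.72% of all genes in that direction. Meis2 led them, with 5.02, 5.30, 4.64 and 5.64 in the mutants, against 4.61, 4.77, 4.66 and 5.71 in WT, and a slope of -0.20 ± 0.08 log2 per somite (SE), or -0.10 without WT 4. Pbx4 had a slope of -0.13 ± 0.06 (SE), or -0.09 without WT 1. The other was Meis1, which lay under the yardstick on every array, while Meis2 lay above it on 3 of 8. Of genes at or under the median level, 77.6% had a slope below 0.

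Of 13 upstream regulators of the axis, 0 had an unadjusted p under 0.05 for mutant against WT, against 4.68% of all genes. For the somite slope 1 of the 13 did, against 9.74% of all genes. It was Nr6a1, at 0.13 ± 0.05 log2 per somite (SE, limma adjusted p of 0.474). Cdx2, an activator of central and posterior Hox genes, was read well above the yardstick, at 8.19, 7.83, 8.01 and 8.0 in the mutants, against 8.24, 7.98, 8.30 and 7.87 in WT, and the groups overlapped. Its paralogue Cdx1 had a mean of 6.42 over the 8 embryos, while Cdx4 had 2.88 and lay under the yardstick on every array. Prdm1, the germ line repressor, had 8.73, 9.74, 9.45 and 9.09 in the mutants, against 9.47, 9.63, 8.90 and 9.52 in WT.

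In the retinoic acid pathway, 1 of 18 genes had an unadjusted p under 0.05 for mutant against WT, a share near the 4.68% of all genes. This was Crabp1, a carrier of retinoic acid in the cytoplasm, with 10.16, 9.56, 9.79 and 9.58 in the mutants, against 9.70, 9.31, 8.38 and 8.96 in WT. WT 3 was lowest, and the groups overlapped through WT 1. The difference was 0.69 ± 0.26 (SE, limma adjusted p of 0.973), or 0.45 without WT 3 and 0.89 without WT 1. Crabp1 had a somite slope of 0.21 ± 0.07 log2 per somite (SE, limma adjusted p of 0.437). It was the 1 slope of the 18 with an unadjusted p under 0.05, against 9.74% of all genes.

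Of 30 Polycomb genes, 25 lay above the yardstick on all 8 arrays, where 49.2% of all genes did. For mutant against WT, 1 of the 30 had an unadjusted p under 0.05, against 4.68% of all genes. Cbx2, a Polycomb protein that binds methylated histone H3 and whose loss shifts Hox domains in mice, had 9.14, 8.99, 9.13 and 9.22 in the mutants, against 8.86, 8.52, 8.64 and 8.87 in WT. All mutants lay above all WT embryos, by a mean of 0.40 ± 0.13 (SE), and the limma adjusted p was 0.973. Phf1, another Polycomb gene, separated the other way, with all mutants below all WT embryos and a difference of -0.19 ± 0.13 (SE). Over all genes, 2.52% separated in either direction. For the somite slope, 6 of the 30 had an unadjusted p under 0.05, all above 0, against 5.02% of all genes in that direction. They included Pcgf6 (0.21 ± 0.06 log2 per somite, SE, and 0.13 without WT 4) and Pcgf1 (0.45 ± 0.15, SE, and 0.25 without WT 3 and mutant 4), subunits of Polycomb complex variants. The median slope of the 30 was 0.03, with 10 below 0. Genes above the median level leaned the same way, with a median slope of 0.02 and 41.4% below 0. Fitted alone, 10.5% of these genes had an unadjusted limma p under 0.05, in either direction. A difference of the Polycomb slopes from those was not tested. All 15 Trithorax and demethylase genes lay above the yardstick, and 0 had an unadjusted p under 0.05 in either comparison.

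Of 22 measured neighbours and noncoding genes of the clusters, 1 had an unadjusted p under 0.05 for mutant against WT, again near the 4.68% of all genes. It was Cbx5, a heterochromatin protein gene near Hoxc, at 9.90 ± 0.06 in the mutants and 9.57 ± 0.16 in WT (SD, n = 4 each). Its difference was 0.33 ± 0.13 (SE, limma adjusted p of 0.973). For the somite slope, 3 of the 22 had such a p, against 9.74% of all genes: Skap2 at 0.27 ± 0.10 and Mtx2 at 0.25 ± 0.10 log2 per somite (SE), both above 0, and Hoxd3os1 below 0. Hoxd3os1, an opposite-strand gene named for Hoxd3, had 5.10, 5.17, 5.10 and 5.17 in the mutants, against 4.77, 4.72, 6.07 and 5.36 in WT, with WT 3 highest, and a slope of -0.20 ± 0.07 log2 per somite (SE). Hoxd3 itself had 5.04, 4.97, 5.03 and 5.10 in the mutants, against 5.02, 4.72, 5.17 and 5.29 in WT.

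The sorted cells carried the PGC identity given by the labels: all 16 PGC markers lay above the yardstick on all 8 arrays, with list means from 9.70 to 9.82 in the mutants and from 9.56 to 9.84 in WT. Markers of other cells and tissues were also read, and their counts stand beside 49.2% of all genes above the yardstick on all 8 arrays. Above the yardstick on all arrays were 7 of 12 tailbud progenitor markers, 5 of 15 of trunk mesenchyme, 4 of 10 of urogenital mesoderm, 4 of 11 of neural tube, 3 of 6 of neural crest, 8 of 12 of hindgut, 3 of 8 of endothelium, 4 of 8 of surface ectoderm, 3 of 8 primitive erythroid and 3 of 9 macrophage. The mean of the tailbud list ran from 5.60 to 5.81 in the mutants and from 5.63 to 5.93 in WT, that of trunk mesenchyme from 5.12 to 5.29 in the mutants and from 5.0 to 5.45 in WT, and that of neural tube from 5.31 to 5.66 in the mutants and from 5.37 to 5.66 in WT. These 3 means were highest in WT 3, as was the Hox mean, and so was the mean of the receptor genes (3.84 in WT 3). Those of surface ectoderm, primitive erythroid and macrophage markers were highest in WT 3 too. Urogenital mesoderm and hindgut means were highest in mutant 4, that of neural crest in mutant 3 and that of endothelium in WT 4. The lowest mean was in WT 1 for trunk mesenchyme, neural crest, hindgut, surface ectoderm and primitive erythroid markers, as for the Hox genes. It was in mutant 1 for endothelium, in mutant 2 for tailbud and urogenital mesoderm, and in mutant 3 for neural tube and macrophage.

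Somite slopes of these lists are set beside 59.5% below 0 over all genes and 77.6% over genes at or under the median level. They were below 0 for 8 of 12 tailbud progenitor markers, 12 of 15 of trunk mesenchyme and 9 of 10 of urogenital mesoderm. The counts were 10 of 11 for neural tube, 6 of 6 for neural crest and 10 of 12 for hindgut. Endothelium had 6 of 8, surface ectoderm 7 of 8, primitive erythroid 7 of 8, macrophage 8 of 9 and PGC markers 7 of 16. No difference from those shares was tested. The hindgut list mean was 6.41, 6.40, 6.5 and 6.98 in mutants 1 to 4, against 6.28, 6.5, 6.58 and 6.81 in WT 1 to 4, highest in the youngest embryo of each group, as Hoxb6 was. Of the 12 hindgut slopes, 2 had an unadjusted limma p under 0.05, each below 0, against 4.72% of all genes in that direction. The median slope of the 12 was -0.09, and the keratin Krt18 among them had -0.41 ± 0.09 log2 per somite (SE). In sorted bulk samples, a change in the share of other cells and a change in the RNA of each cell cannot be told apart, and the part of other cells in the Hox slopes was not tested.

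Probe design sets a further limit. By RefSeq positions, 6 pairs of members overlap: Hoxa3 with Hoxa4, Hoxa5 and Hoxa6, Hoxb3 with Hoxb4, Hoxd3 with Hoxd4, and Hoxd11 with Hoxd10. Probe positions were not used here, so signal from a long transcript of one member cannot be told apart from that of the gene inside it.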

How the data were processed

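Total RNA of PGCs sorted from single embryos was amplified and labelled with biotin with NuGEN kits, per the labels' protocols, and hybridised to 1 microarray per embryo. The authors deposited 1 value per probe and array for 35557 probes, and the range of these values led to their reading as log2, as the table states no unit. The sources used here do not say how background and normalization were handled. Quantiles differed between arrays, and the deposited log2 values were used as they stand. The platform's annotation gave 21789 probes 1 gene symbol, 1621 several and 12147 none, and a gene with several single-symbol probes was represented by the probe of highest mean. No 2 arrays were identical.

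Groups, replicate numbers and somite numbers came from the labels, with the midpoint where a range is given. The tests used limma 3.58.1 under R 4.3.3 with lmFit then eBayes (no covariate for mutant against WT, genotype as a term for the slope and both terms plus their product for the interaction) fitted to all 19938 genes, two-sided, with Benjamini-Hochberg adjustment and a threshold of 0.05. Errors are SD over the 4 embryos of a group or SE from limma, and intervals cover 95%. The code was tested on simulated data. No label gives litters. The members, lists and rules were chosen with earlier results of these data known. Values per embryo are given for the 3 genes per direction of smallest p in each comparison and for members above the yardstick, and for each list at most 3 genes by p for mutant against WT and 2 for the slope. Cdx1, Cdx2, Cdx4, Prdm1, Krt18, Phf1, Meis1, Hoxc6, Hoxd3, Hoxd3os1 and the microRNAs were named outside this rule. Alternatives covered scaling, filtering, probe choice, variance model, weights, somite coding, left-out embryos and a replicate block. No scanner values were used here, so no detection limit was set.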

Additional observations from a re-analysis of the deposited data

Results flagged for a closer look

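Of 74 groups of 4 embryos (37 genes in each genotype), 3 held an embryo whose gap to the nearest other exceeded Dixon's critical value for the range of the group. Chance flags about 1 in 20 groups. Hoxa5 was high in mutant 2, at 4.63, with the other mutants from 4.06 to 4.14. Hoxd11 was low in mutant 1, at 4.80, with the other mutants from 5.05 to 5.08. Hoxb1 was high in WT 3, at 6.47, with the other WT embryos from 6.16 to 6.20.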

How the results depend on the processing

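For mutant against WT, all 17 alternatives called 0 genes, with between 538 and 1715 genes at an unadjusted p under 0.05. No Hox gene was called in any alternative of the 3 limma comparisons. With all 37 members in the fit, the Hox median difference ran from -0.08 to 0.03, and 0 to 2 members had an unadjusted p under 0.05, among them Hoxd8 in 5 of the 16 that tested it. The differences of the 6 Hox genes and of Crabp1, Cbx2 and Cbx5 kept their sign throughout. The somite slope called 0 genes in 13 of 19 alternatives, 1 with the high end of the somite range, 0 to 2 when 1 embryo was left out, and 5 without WT 3 and mutant 4, the 2 embryos of high Xist (7.07 and 6.31, against 3.5 to 4.11 elsewhere). Over all 37 members, between 27 and 36 slopes lay below 0. The slopes of Hoxb6, Hoxa6 and Hoxd4 kept their sign in 18 alternatives each, with an unadjusted p under 0.05 in 17, 15 and 13. Slopes near 0 changed sign. Hoxa2 ranged from -0.0383 to 0.0378 when 1 embryo was left out (-0.00378 without WT 1, -0.000185 without WT 2), and had -0.00239 with the low end of the range and -0.0677 with the replicate block. Hoxa4 ranged from -0.0165 to 0.0214 and had -0.0155 with the replicate block. Hoxd8 ranged from -0.0330 to 0.0637 and had -0.00347 with the high end of the range and -0.0160 with somite number alone, and it moved to 0.25 with the replicate block. The slopes of Meis2, Pbx4, Pcgf6 and Pcgf1 kept their sign. Alternatives for these and for Crabp1, Cbx2 and Cbx5 were added after seeing the data.

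With the replicate block the interaction called 70 genes, 0 of them Hox, against 0 without it, and this fit leaves 1 residual degree of freedom. The slopes with the block were -0.07 for Hoxb6, -0.25 for Hoxa6 and -0.01 for Hoxd4. Embryos of the same number correlated at -0.05, 0.04, -0.19 and 0.10 in their deviations from the group means, and 0 of 4 correlated best with their own number. Differences in array level and width enter these correlations and no label gives litters, so they cannot settle whether the numbers pair embryos. The cause of these changes was not tested. With 4 embryos a group, the 95% interval of a Hox difference reached 0.26 to 0.59 to each side (median 0.36), which limits the differences that could be detected. Only 6 Hox genes passed the filter on genes above the median level.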
